A study of Mus musculus with 6 samples.

Results

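The genes described here carry the cell division cycle: 26 genes that act in mitosis and 15 that act in S phase, when DNA is copied. The 41 genes were given by name, each was found through the RefSeq accession of its probe, and each is represented by its brightest probe. All 41 of 41 had a probe that passed the filter on dim signal, among 18389 tested entries, which are genes or transcripts without a gene name. Expression was measured on 6 single-colour Agilent arrays in red pulp macrophages, which clear aged red blood cells in the spleen and recycle their iron, and which were isolated by flow cytometry. The 3 wild-type and 3 Bach2 knockout mice were C57BL/6 and 8 to 9 weeks old, and wild-type replicate 3 was female while the other 5 mice were male. Bach2 is a transcriptional repressor of the BACH family. The labels state neither the knockout allele nor the cells that lack the gene, the surface markers used for sorting are not stated in the sources used here, and no treatment is named for any group. Replicate numbers only name the mice.

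In the cell division cycle, E2F factors switch on the genes for DNA replication at the passage from G1 into S phase. Licensing factors then load the MCM helicase onto origins, and the replication fork copies the DNA from nucleotides supplied by ribonucleotide reductase and thymidylate synthase. A later wave of genes, driven by the factors that bind CHR elements and by FOXM1, supplies the mitotic kinases, the spindle and the machinery that separates chromosomes. Resident macrophages divide rarely at rest, whereas erythroid precursors of the splenic red pulp divide while they mature.

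The 6 arrays shared 1 slide. Row 1 of the slide carried the wild-type mice and row 2 the knockout mice, so the effects of row and genotype cannot be told apart, while every one of the 3 columns carried a wild-type and a knockout mouse with the same replicate number. The share of spots well above background was 37.46% to 51.47%, and the arrays' 75th percentile of processed signal was lowest for wild-type replicate 3, at 869.69, and highest for knockout replicate 3, at 3209.43. Of 16 red pulp macrophage markers with a probe, 15 or 16 were well above background on every array. A level is the log2 processed signal minus the array's 75th percentile, a difference is the knockout mean minus the wild-type mean of 3 mice each, and the 6 values of a gene are given for replicates 1, 2 and 3 of wild type and then of knockout. Bach2 itself measured -1.09, -0.22 and -1.54 in wild type and -2.42, -3.91 and -1.42 in knockout, a difference of -1.63 ± 0.69 (SE; limma adjusted p = 0.9998). Its signal was well above background in 3 wild-type and 2 knockout mice. Knockout replicate 3 lay above wild-type replicate 3, so the groups overlapped. Whether the Bach2 probe lies in the deleted part is not given, so this check does not settle the label of that mouse, and the main results are also given without it.

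Promoters of the members were searched for the elements of the 2 waves. RefSeq promoter windows (assembly GRCm38.p6, 250 bases before to 50 after the gene start) were at hand for 34 of the 41 members, 21 mitosis and 13 S phase genes. Ccna2, Foxm1, Kif20a, Tpx2, Aurkb, Gins2 and Mcm4 are named only. On both strands, 3 elements were searched: the CHR core TTTGAA, the CCAAT box bound by NF-Y, and an E2F site in the 4 words TTTCCCGC, TTTCGCGC, TTTGCCGC and TTTGGCGC. The CHR core stood in 16 of 21 mitosis promoters (76.19%) and 2 of 13 S phase promoters (15.38%), against 20.23% of the 27025 genes in the RefSeq table. An E2F word stood in 6 of 13 S phase promoters (46.15%), those of Cdc6, Cdt1, Mcm3, Mcm5, Mcm6 and Mcm7, and in 1 of 21 mitosis promoters (4.76%), that of Cdk1, against 2.6% of all genes. CCAAT stood in 18 of 21 (85.71%) and 9 of 13 (69.23%), against 41.06% of all genes. These are matches of letters, not measured binding.

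The 250 bases before the start of 5 members show the elements, written 5′ to 3′ on the strand of the gene and in lower case, with matches of either strand in capitals. Cdk1, Cdc20 and Kif11 stand for mitosis, each with a CHR core and CCAAT close to the start. Mcm5 and Mcm6 stand for S phase, with E2F words and no CHR core.
Cdk1, chr10:69352913-69353162, minus strand: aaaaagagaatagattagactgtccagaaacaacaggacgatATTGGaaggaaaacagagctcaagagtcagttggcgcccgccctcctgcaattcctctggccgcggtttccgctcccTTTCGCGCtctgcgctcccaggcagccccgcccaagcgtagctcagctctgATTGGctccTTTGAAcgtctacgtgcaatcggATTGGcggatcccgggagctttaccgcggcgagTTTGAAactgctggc
Cdc20, chr4:118437344-118437593, minus strand: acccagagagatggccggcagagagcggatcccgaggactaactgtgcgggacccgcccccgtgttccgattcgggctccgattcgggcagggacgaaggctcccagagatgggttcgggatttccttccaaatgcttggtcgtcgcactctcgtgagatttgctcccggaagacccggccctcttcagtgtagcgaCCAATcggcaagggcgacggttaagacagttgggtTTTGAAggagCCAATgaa
Kif11, chr19:37376132-37376381, plus strand: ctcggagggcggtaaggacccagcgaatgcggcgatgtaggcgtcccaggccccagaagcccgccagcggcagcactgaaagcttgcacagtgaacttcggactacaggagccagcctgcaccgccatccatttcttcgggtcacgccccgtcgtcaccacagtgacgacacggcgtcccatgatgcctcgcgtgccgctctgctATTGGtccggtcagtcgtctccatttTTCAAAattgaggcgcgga
Mcm5, chr8:75109259-75109508, plus strand: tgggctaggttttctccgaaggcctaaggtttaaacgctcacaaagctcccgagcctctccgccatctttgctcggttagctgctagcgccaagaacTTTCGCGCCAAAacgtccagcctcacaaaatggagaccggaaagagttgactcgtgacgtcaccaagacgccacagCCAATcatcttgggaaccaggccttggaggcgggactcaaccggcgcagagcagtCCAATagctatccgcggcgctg
Mcm6, chr1:128359706-128359955, minus strand: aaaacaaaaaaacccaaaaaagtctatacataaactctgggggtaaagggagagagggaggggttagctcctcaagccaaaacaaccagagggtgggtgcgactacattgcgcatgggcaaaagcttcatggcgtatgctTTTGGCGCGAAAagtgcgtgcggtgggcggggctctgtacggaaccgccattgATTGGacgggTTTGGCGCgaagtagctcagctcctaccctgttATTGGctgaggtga
Counted by the leftmost base of the match, with -1 as the last base before the start, the CHR core began at -15 and -71 in Cdk1, at -18 in Cdc20 and at -19 in Kif11. In Kif11 it lies on the opposite strand and reads TTCAAA above. CCAAT on the opposite strand reads ATTGG, as at -48 and -80 in Cdk1. The pair of E2F words at -153 and -149 in Mcm5, and the pair at -110 and -106 in Mcm6, lie on opposite strands and overlap. A further CCAAT of Mcm5 began at position 7 after the start and is not printed.

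The series addresses the role of Bach2 in heme and iron homeostasis of these macrophages, and the same 2 groups give the levels of the division genes. The mitosis genes lay higher on the knockout arrays on average, by 0.93 at the median on the log2 scale (1.90-fold), and 25 of 26 genes lay above 0, Cenpf being the exception. The S phase genes differed less, with a median of 0.21 (1.16-fold) and 12 of 15 above 0, and all tested entries had a median of -0.11 with 38.52% above 0. Relative to that median the sets lay higher by 1.04 and 0.33. Scaling to each array's median moved the median of all entries to 0.01, with 51.04% above 0, 25 of 26 mitosis genes and 15 of 15 S phase genes above 0, and quantile normalization gave 48.25%, 25 of 26 and 14 of 15. None of the 41 members passed the test, limma with Benjamini-Hochberg adjustment over all entries at 0.05, with an adjusted p of 0.9998 for every member. Where a gene had several tested probes, as 6 mitosis genes and 1 S phase gene did, they gave differences of 1 sign. No entry of the array passed either (0 of 18389, 0%). For the mitosis genes the mouse of array column 1 had the highest levels of its genotype in both genotypes, and the 2 groups overlapped for every member. Arrays of sorted cells measure bulk RNA, so a different number of dividing cells and a different amount of these transcripts in each cell cannot be told apart.

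**Figure D1:**
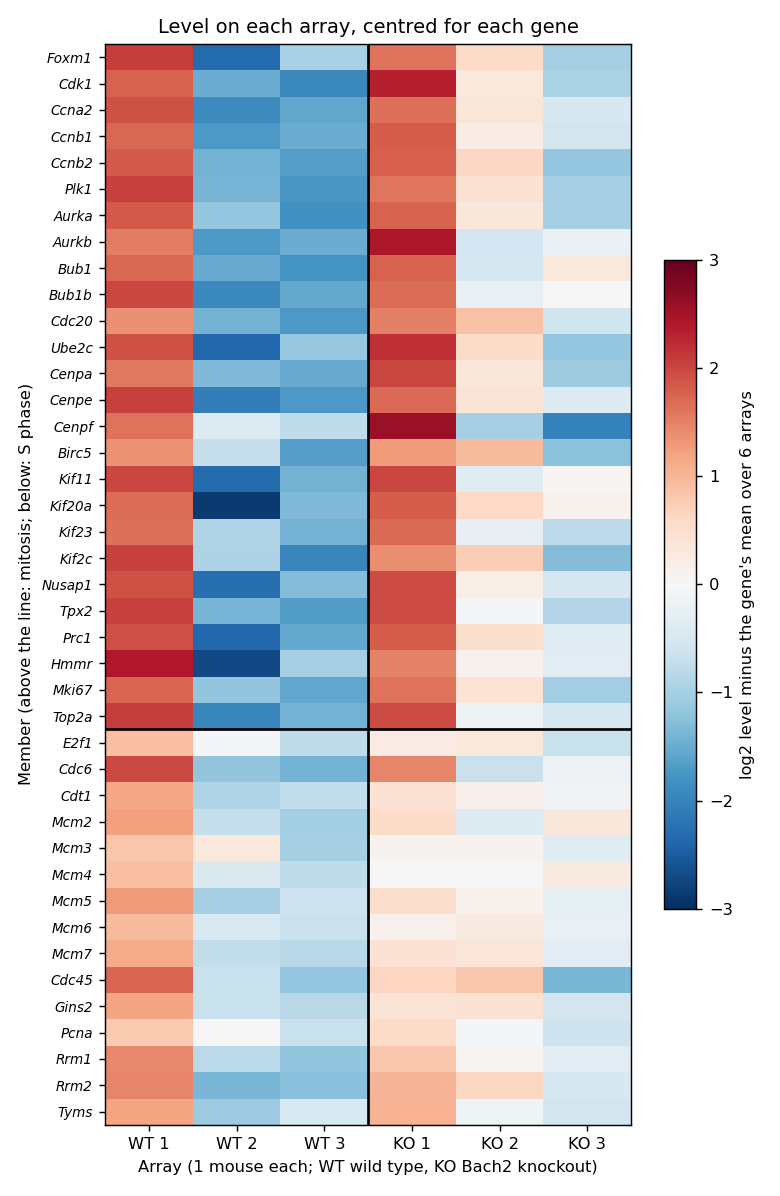
Level of each of the 41 members (rows, mitosis above the line and S phase below) on each of the 6 arrays (columns, 1 mouse each), as log2 level minus the gene's mean over the 6 arrays. The column of wild-type replicate 1 and that of knockout replicate 1 are red for every mitosis gene, and wild-type replicates 2 and 3 are blue.

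At an unadjusted p under 0.05, limma counted 126 entries higher in knockout (0.685%) and 109 lower (0.593%), and 0 of the 41 members. The smallest unadjusted p of a member was 0.1551, for Kif20a. The values of knockout lay wholly above those of wild type for 213 entries (1.16%) and wholly below for 357 (1.94%), again with 0 members among them. The values also depended on single mice. Without knockout replicate 3, the median difference was 1.46 for the mitosis genes, with 26 of 26 above 0, and 0.46 for the S phase genes. Without wild-type replicate 1 the medians were 2.14 and 0.91, and without knockout replicate 1 they were 0.21 and 0.05. The median of the mitosis genes thus stayed above 0 and changed in size. Leaving out wild-type replicate 2 gave 0.30 and -0.07, beside a median of all entries of -0.05. Leaving out wild-type replicate 3, the only female, gave 0.44 and -0.14, beside -0.16 for all entries. The sign of the S phase median thus turned, and in both cases it lay near the median of all entries.

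**Figure D2:**
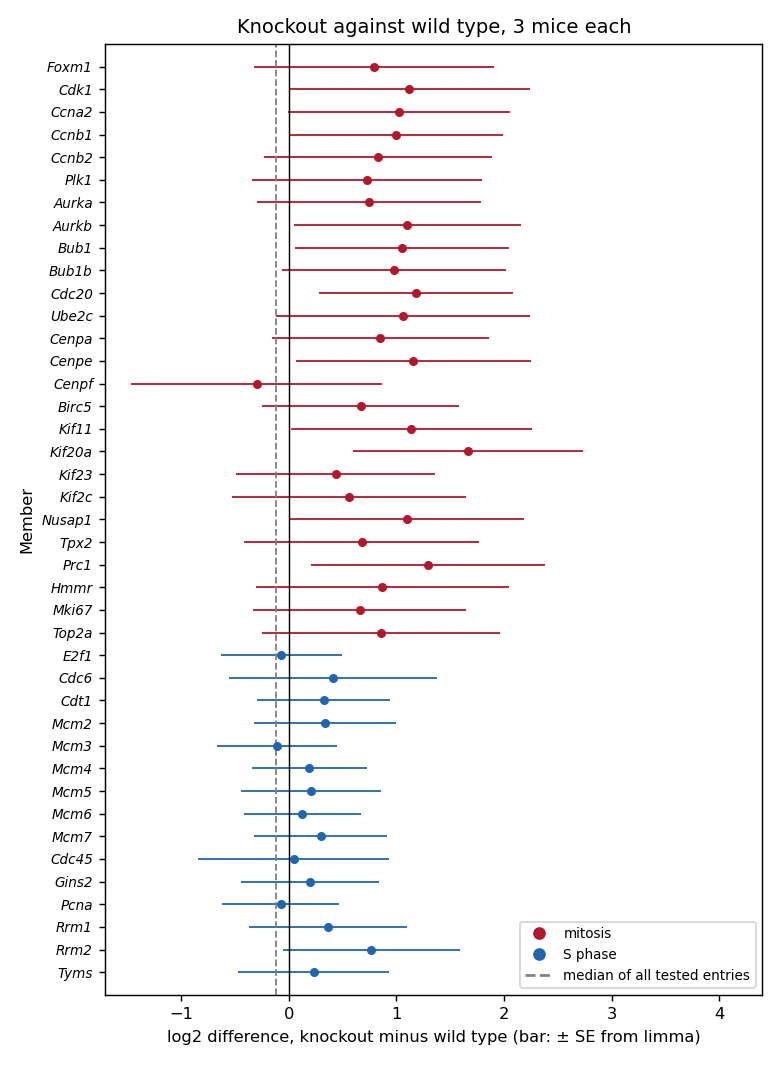
Log2 difference, knockout minus wild type (x axis), for each member (y axis), with the SE from limma as the bar and 3 mice in each genotype. The dashed line is the median of all tested entries, -0.11. The points of 25 of 26 mitosis genes lie to the right of 0 with bars about as long as the differences.

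Of the regulators and kinases of mitotic entry, 8 of 8 lay above 0 with a median difference of 0.91. Foxm1, the forkhead factor that drives mitotic genes, had levels of 1.70, -2.67 and -1.33 in wild type and 1.25, 0.20 and -1.38 in knockout, a difference of 0.79 ± 1.11 (SE). Cdk1, the kinase that triggers mitosis, had levels of 4.81, 1.56 and 1.11 in wild type and 5.38, 3.37 and 2.09 in knockout, a difference of 1.12 ± 1.12 (SE). Its cyclin partner Ccna2 measured 5.45, 1.63 and 1.97 in wild type and 5.19, 3.90 and 3.05 in knockout, a difference of 1.03 ± 1.03 (SE). In these 3 genes replicate 1 of the 2 genotypes gave the 2 highest arrays and knockout replicate 2 came next. Ccnb1, a B-type cyclin, measured 3.75, 0.29 and 0.54 in wild type and 3.85, 2.25 and 1.48 in knockout, a difference of 0.998 ± 0.99 (SE). Ccnb2, the other B-type cyclin, measured 5.80, 2.54 and 2.32 in wild type and 5.75, 4.59 and 2.81 in knockout, a difference of 0.83 ± 1.06 (SE). Both cyclins had wild-type replicates 2 and 3 as the lowest arrays. Plk1, a polo-like kinase of the spindle poles and kinetochores, measured 4.54, 1.09 and 0.73 in wild type and 4.10, 2.95 and 1.499 in knockout, a difference of 0.72 ± 1.07 (SE). Aurka, the aurora kinase of the spindle poles, measured 3.72, 0.72 and 0.06 in wild type and 3.65, 2.22 and 0.87 in knockout, a difference of 0.74 ± 1.04 (SE). Aurkb, the aurora kinase of the chromosomal passenger complex, measured 0.28, -2.98 and -2.76 in wild type and 1.16, -1.85 and -1.46 in knockout, a difference of 1.10 ± 1.06 (SE), with a signal well above background in 2 wild-type and 3 knockout mice. Foxm1, Ccnb2, Plk1 and Aurka had SEs clearly larger than their differences.

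The spindle checkpoint holds sister chromatids together until every chromosome is attached, and the anaphase-promoting complex then ends mitosis. The 4 members of this step had a median difference of 1.06, and 4 of 4 lay above 0. Bub1, a checkpoint kinase, measured 1.98, -1.25 and -1.54 in wild type and 2.03, -0.25 and 0.57 in knockout, a difference of 1.05 ± 0.99 (SE). Bub1b, which restrains the anaphase-promoting complex, measured 2.74, -1.18 and -0.79 in wild type and 2.41, 0.53 and 0.77 in knockout, a difference of 0.98 ± 1.04 (SE). For both, knockout replicate 3 lay above knockout replicate 2, the reverse of most mitosis genes. Cdc20, the activator of that complex, measured 4.98, 2.19 and 1.88 in wild type and 5.11, 4.48 and 3.01 in knockout, a difference of 1.19 ± 0.90 (SE). Ube2c, its ubiquitin-conjugating enzyme, measured 6.26, 1.98 and 3.20 in wild type and 6.53, 4.89 and 3.19 in knockout, a difference of 1.06 ± 1.18 (SE). Cdc20 had the smallest SE of the mitosis genes, and the level of Ube2c in knockout replicate 3 was almost that of wild-type replicate 3.

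Of the centromere and passenger genes, 3 of 4 lay above 0 with a median of 0.76. Cenpa, the histone variant of the centromere, measured 3.62, 0.72 and 0.54 in wild type and 4.04, 2.40 and 0.99 in knockout, a difference of 0.85 ± 1.01 (SE). Cenpe, a kinetochore motor, measured 4.52, 0.39 and 0.72 in wild type and 4.16, 2.87 and 2.07 in knockout, a difference of 1.16 ± 1.09 (SE). Birc5, survivin of the passenger complex, measured 7.08, 5.02 and 4.07 in wild type and 7.01, 6.67 and 4.50 in knockout, a difference of 0.67 ± 0.91 (SE). In these 3 genes the order of the arrays was again replicate 1 of both genotypes, then knockout replicate 2. Cenpf, a large kinetochore protein, measured -1.94, -3.97 and -4.33 in wild type and -0.98, -4.55 and -5.60 in knockout, a difference of -0.30 ± 1.17 (SE), with a signal well above background in 2 wild-type mice and 1 knockout mouse. Its levels on the arrays where the signal was not well above background have no order, and the sign of its difference rests on them.

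The spindle genes had a median of 0.99 with 8 of 8 above 0. Kif11, the motor that pushes the spindle poles apart, measured 1.52, -2.80 and -1.89 in wild type and 1.52, -0.85 and -0.42 in knockout, a difference of 1.14 ± 1.12 (SE). Kif20a, a motor of the late spindle and of cytokinesis, measured 3.21, -1.33 and 0.21 in wild type and 3.34, 2.13 and 1.63 in knockout, a difference of 1.67 ± 1.07 (SE). Prc1, which bundles the microtubules of the central spindle, measured 4.94, 0.66 and 1.47 in wild type and 4.83, 3.48 and 2.65 in knockout, a difference of 1.30 ± 1.09 (SE). By the brightest probe, Kif20a and Prc1 had the largest differences of the 41 members. In both, the level of knockout replicate 3 exceeded that of wild-type replicates 2 and 3. With the mean of a gene's probes, Ccnb1 had a difference of 1.72, above that of Kif20a. Kif23, another motor of cytokinesis, measured 3.83, 1.30 and 0.78 in wild type and 3.88, 1.93 and 1.41 in knockout, a difference of 0.44 ± 0.93 (SE). Kif2c, a microtubule depolymerase, measured 0.96, -2.04 and -3.06 in wild type and 0.30, -0.37 and -2.39 in knockout, a difference of 0.56 ± 1.08 (SE), with a signal well above background in 2 wild-type and 3 knockout mice. The differences of Kif23 and Kif2c were the smallest of this group. Nusap1, a spindle-associated protein, measured 4.48, 0.32 and 1.28 in wild type and 4.54, 2.77 and 2.08 in knockout, a difference of 1.10 ± 1.09 (SE). Tpx2, the activator of Aurka on the spindle, measured 4.07, 0.61 and 0.34 in wild type and 3.96, 1.95 and 1.14 in knockout, a difference of 0.68 ± 1.09 (SE). Hmmr, a hyaluronan receptor that also binds the spindle, measured 2.25, -2.86 and -1.14 in wild type and 1.35, -0.03 and -0.46 in knockout, a difference of 0.87 ± 1.18 (SE). Hmmr spanned 5.11 between its lowest and highest array, the widest span of any member.

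The 2 genes of the mitotic chromosome had differences with SEs above their size. Mki67, the proliferation marker Ki-67 that coats mitotic chromosomes, measured 6.94, 3.998 and 3.62 in wild type and 6.82, 5.59 and 4.14 in knockout, a difference of 0.66 ± 0.99 (SE). Top2a, the topoisomerase that untangles sister chromatids, measured 2.73, -1.32 and -0.76 in wild type and 2.60, 0.50 and 0.13 in knockout, a difference of 0.86 ± 1.10 (SE). Both had replicate 1 of each genotype highest and wild-type replicates 2 and 3 lowest.

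Among the S phase genes, E2f1, a transcription factor of the G1 to S transition, measured 3.49, 2.52 and 1.83 in wild type and 2.83, 2.89 and 1.90 in knockout, a difference of -0.07 ± 0.56 (SE). The licensing factors Cdc6 and Cdt1 load the MCM helicase onto origins. Cdc6 measured 2.57, -0.60 and -0.85 in wild type and 2.05, -0.09 and 0.40 in knockout, a difference of 0.41 ± 0.97 (SE). Cdt1 measured 3.998, 1.94 and 2.11 in wild type and 3.28, 3.01 and 2.74 in knockout, a difference of 0.33 ± 0.62 (SE). Cdc6 had the widest span of the S phase genes, 3.41, which is within the range of the mitosis genes, while Cdt1 spanned 2.06.

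The helicase genes had a median difference of 0.20, with 7 of 8 above 0. The 6 MCM proteins form the ring that unwinds DNA. Mcm2 measured 3.71, 1.76 and 1.46 in wild type and 3.02, 2.08 and 2.82 in knockout, a difference of 0.34 ± 0.66 (SE). Mcm3 measured 4.95, 4.43 and 3.11 in wild type and 4.21, 4.21 and 3.75 in knockout, a difference of -0.11 ± 0.56 (SE). Mcm4 measured 5.25, 3.89 and 3.58 in wild type and 4.36, 4.34 and 4.60 in knockout, a difference of 0.19 ± 0.53 (SE). For these 3 genes wild-type replicate 1 was the highest array and the SE exceeded the difference. Mcm5 measured 3.76, 1.49 and 1.86 in wild type and 2.99, 2.57 and 2.17 in knockout, a difference of 0.21 ± 0.65 (SE). Mcm6 measured 5.64, 4.23 and 4.03 in wild type and 4.83, 4.98 and 4.47 in knockout, a difference of 0.13 ± 0.54 (SE). Mcm7 measured 5.17, 3.32 and 3.22 in wild type and 4.48, 4.42 and 3.71 in knockout, a difference of 0.30 ± 0.62 (SE). In each of the 6 MCM genes the 3 knockout arrays lay between the highest and the lowest wild-type array. Cdc45, which joins the active helicase, measured -1.34, -3.76 and -4.26 in wild type and -2.46, -2.29 and -4.47 in knockout, a difference of 0.05 ± 0.89 (SE). Its signal was well above background on 2 wild-type mice and 1 knockout mouse. Gins2, a subunit of the GINS complex of the same helicase, measured 2.25, 0.40 and 0.24 in wild type and 1.47, 1.52 and 0.50 in knockout, a difference of 0.20 ± 0.64 (SE).

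Pcna, the sliding clamp of the fork, measured 6.80, 6.01 and 5.35 in wild type and 6.58, 5.95 and 5.40 in knockout, a difference of -0.07 ± 0.54 (SE), the narrowest span of the 41 members at 1.45. The 3 genes of nucleotide supply lay above 0, with a median of 0.36. Rrm1, the large subunit of ribonucleotide reductase, measured 4.64, 2.37 and 2.01 in wild type and 3.99, 3.28 and 2.85 in knockout, a difference of 0.36 ± 0.73 (SE). Rrm2, its small subunit, measured 5.61, 2.75 and 2.89 in wild type and 5.16, 4.75 and 3.64 in knockout, a difference of 0.77 ± 0.82 (SE). Tyms, thymidylate synthase, measured 0.70, -1.58 and -0.93 in wild type and 0.55, -0.63 and -1.04 in knockout, a difference of 0.23 ± 0.70 (SE). Rrm2 had the largest difference of the S phase genes, and its knockout values lay inside the wild-type range, as did those of Rrm1.

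The mice of 1 genotype differed more in the mitosis genes than in most of the array. The pooled SD within a genotype had a median of 1.75 over the mitosis genes, 0.89 over the S phase genes and 0.64 over all entries. All 26 mitosis genes and 1 S phase gene lay at or above 1.42, the 90th percentile of all entries. By the brightest probe, the mitosis genes spanned a median of 3.97 (15.7-fold) from the lowest to the highest of the 6 arrays. Their spans ran from 3.01 for Birc5 to 5.11 for Hmmr. The S phase genes spanned 2.06 (4.17-fold) and all entries 1.64 (3.12-fold).

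**Figure D3:**
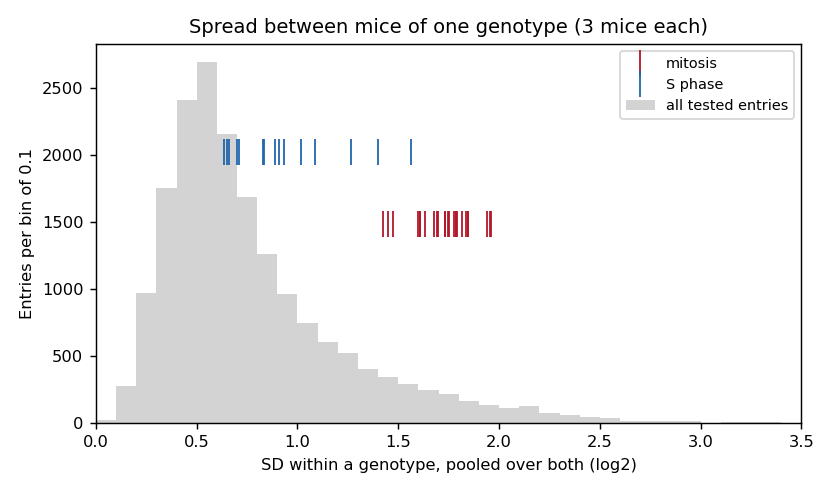
Pooled SD within a genotype (x axis, log2) of all 18389 tested entries as a histogram (y axis, entries per bin), with 1 tick for each mitosis gene and each S phase gene at arbitrary height. The 26 mitosis ticks all stand at or to the right of the 90th percentile, 1.42, and most S phase ticks stand to the left of it.

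The order of the arrays was shared by the members. Both arrays of column 1, wild-type replicate 1 and knockout replicate 1, were the 2 highest for 26 of 26 mitosis genes and 9 of 15 S phase genes, against 15.6% of all entries. Wild-type replicate 1 was the highest array for 15 of 15 S phase genes and 14 of 26 mitosis genes, and knockout replicate 1 for the other 12 mitosis genes. Wild-type replicates 2 and 3 were the 2 lowest arrays for 21 of 26 mitosis and 10 of 15 S phase genes, against 5.89% of all entries. Knockout replicate 2 took rank 3 for 21 of 26 mitosis genes, and knockout replicate 3 took rank 4 for 17. In a limma F test of the array column with genotype in the model, chosen after the data were seen, 26 of 26 mitosis and 6 of 15 S phase genes had an unadjusted p under 0.05, 78.05% of the members against 19.1% of all entries. With Benjamini-Hochberg adjustment 0 entries passed (0%), and the smallest adjusted p was 0.1816. A column holds 1 mouse of each genotype, so a column and its pair of mice cannot be told apart.

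Centred on each gene's mean, the mitosis genes averaged 1.84, -1.68 and -1.50 in wild type (SD 1.99, n = 3) and 1.83, 0.21 and -0.69 in knockout (SD 1.27, n = 3). The means of replicate 1 of the 2 genotypes were close to each other. The S phase genes averaged 1.21, -0.65 and -0.89 (SD 1.15) and 0.56, 0.14 and -0.37 (SD 0.46). Within array column 1, the median difference of the mitosis genes was -0.06, with 12 of 26 higher in knockout. It was 1.83 within column 2, with 25 of 26 higher, and 0.80 within column 3, with 23 of 26 higher. The S phase genes had a median of -0.69 within column 1, with 0 of 15 higher, 0.91 within column 2, with 13 of 15, and 0.49 within column 3, with 13 of 15. All entries had -0.13, -0.10 and -0.04, with 38.57%, 44.87% and 47.77% higher in knockout. Within column 1 both medians were below 0, and within columns 2 and 3 both were above 0. Column 3 paired the female wild-type mouse with a male knockout mouse, so sex and genotype cannot be told apart there. The order of columns 2 and 3 moved with the scaling for the S phase genes. Their mean difference in columns 1, 2 and 3 was -0.66, 0.79 and 0.52 with the 75th percentile and -0.49, 0.50 and 1.03 with median scaling. The mitosis genes averaged -0.02, 1.89 and 0.81 with the percentile and 0.14, 1.60 and 1.32 with median scaling, so that the value of column 1 changed sign.

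**Figure D4:**
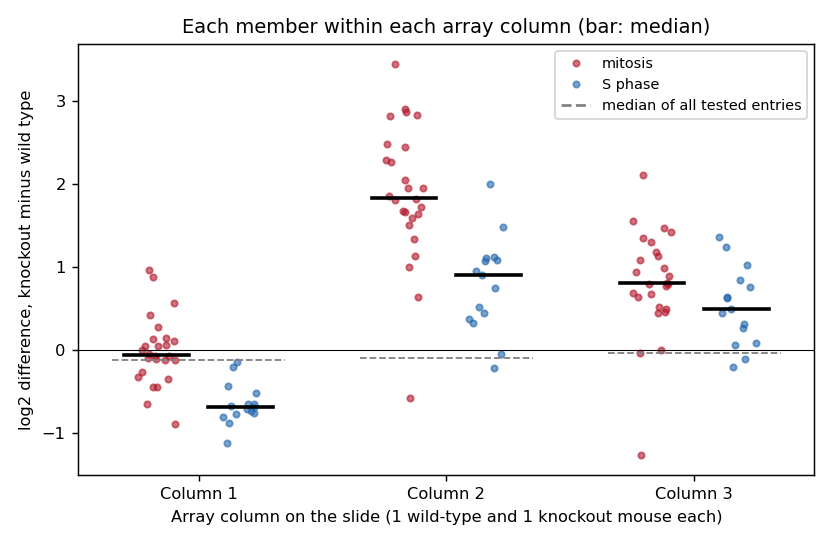
Log2 difference, knockout minus wild type (y axis), within each array column of the slide (x axis), 1 point for each member, with the median of each set as a bar and the median of all tested entries as a dashed line. In column 1 the S phase points all lie below 0 and the mitosis points lie around it, and in columns 2 and 3 most points of both sets lie above 0.

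The mitosis genes were then set against the S phase genes on each array. The mean of the mitosis genes minus that of the S phase genes was 0.63, -1.03 and -0.62 in wild type and 1.27, 0.07 and -0.32 in knockout, so the groups overlapped. The knockout mean was higher by 0.68, and within columns 1, 2 and 3 the difference was 0.64, 1.10 and 0.29, positive in all 3. As the mitosis genes also vary more, this value is a description and carries no test.

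Further genes of the same pathways were read from lists that do not hold the members. Of 82 other mitosis genes, 76 were tested and 69 lay above 0, with a median of 0.81. Of 76 other S phase genes, 75 were tested and 56 lay above 0, with a median of 0.21. Of 29 genes of G1 and of cell cycle arrest, 27 were tested and 14 lay above 0, with a median of 0.05. In each of these lists 0 genes passed the limma test and 0 had an unadjusted p under 0.05, with a background of 0% and of 0.685% higher and 0.593% lower. Named are the 3 genes with the smallest p in each direction.

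Of the other mitosis genes, Trip13, an ATPase of the spindle checkpoint, measured 1.69, -0.43 and -0.14 in wild type and 1.59, 2.29 and 1.01 in knockout, a difference of 1.26 ± 0.66 (SE). Pimreg measured -1.61, -3.91 and -3.35 in wild type and -1.93, -1.79 and -1.87 in knockout, a difference of 1.09 ± 0.62 (SE). Depdc1a measured 0.01, -6.45 and -4.09 in wild type and 0.23, -1.502 and -2.11 in knockout, a difference of 2.38 ± 1.45 (SE), with a signal well above background in 1 wild-type and 3 knockout mice. In Pimreg the knockout mice were close together, just below the highest wild-type mouse. On the lower side, Pttg1, securin, measured 5.50, 5.50 and 4.97 in wild type and 5.15, 5.40 and 4.36 in knockout, a difference of -0.35 ± 0.47 (SE). Hjurp, the chaperone of Cenpa, measured -1.28, -1.58 and -4.001 in wild type and -2.33, -4.63 and -1.60 in knockout, a difference of -0.57 ± 0.96 (SE). Ndc80, which couples kinetochores to microtubules, measured 0.01, -0.97 and -2.40 in wild type and -0.10, -1.24 and -3.42 in knockout, a difference of -0.47 ± 0.92 (SE). Pttg1 spanned less over the arrays than any mitosis member. Pimreg, Hjurp and Ndc80 were well above background in 2 wild-type mice each, and in 3, 2 and 3 knockout mice.

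Of the other S phase genes, Ccne2, a cyclin of the G1 to S transition, measured -2.03, -6.93 and -4.70 in wild type and -1.54, -3.27 and -3.34 in knockout, a difference of 1.84 ± 1.14 (SE), with a signal well above background in 1 wild-type and 2 knockout mice. Usp1, a deubiquitinase of Pcna, measured 3.04, 2.27 and 2.03 in wild type and 3.03, 2.81 and 3.45 in knockout, a difference of 0.65 ± 0.47 (SE). Clspn, a checkpoint adaptor of the fork, measured -0.84, -3.43 and -3.34 in wild type and -0.26, -1.65 and -2.40 in knockout, a difference of 1.10 ± 0.83 (SE). Clspn was well above background in 2 wild-type and 3 knockout mice. None of the 3 genes separated the genotypes. Gins3, a GINS subunit, measured 6.41, 6.93 and 6.15 in wild type and 6.29, 6.49 and 5.42 in knockout, a difference of -0.43 ± 0.48 (SE). Rnaseh2a, a subunit of the nuclease that removes RNA from DNA, measured 4.46, 4.16 and 2.28 in wild type and 3.46, 3.89 and 2.03 in knockout, a difference of -0.51 ± 0.73 (SE). Gins3 did not follow the order of the arrays seen in the members, its highest array being wild-type replicate 2.

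Of the G1 and arrest genes, Cdkn1a, an inhibitor of cyclin-dependent kinases, measured -2.59, -3.28 and -3.25 in wild type and -3.04, -2.46 and -2.07 in knockout, a difference of 0.51 ± 0.47 (SE). Lin9, a core subunit of the complex that binds CHR elements, measured 0.87, -0.01 and -0.86 in wild type and 0.84, 0.23 and 0.52 in knockout, a difference of 0.53 ± 0.54 (SE). Ccng1, a cyclin induced by p53, measured 1.84, 2.39 and 2.49 in wild type and 2.29, 1.90 and 4.07 in knockout, a difference of 0.52 ± 0.63 (SE). Knockout replicate 3 was the highest array of Ccng1 and of Cdkn1a. E2f6, a repressor of E2F targets, measured 2.24, 2.19 and 1.69 in wild type and 1.58, 0.67 and 1.94 in knockout, a difference of -0.64 ± 0.49 (SE). Cdkn2b, an inhibitor of the G1 kinases, measured -2.30, -0.37 and -0.66 in wild type and -1.59, -4.71 and -0.80 in knockout, a difference of -1.25 ± 1.01 (SE). Ccnd1, a D-type cyclin, measured 3.55, 4.45 and 3.08 in wild type and 3.05, 3.03 and 3.39 in knockout, a difference of -0.54 ± 0.49 (SE). Of these 6 genes, only Lin9 had replicate 1 of the 2 genotypes as its 2 highest arrays. Cdkn1a was well above background in 2 mice of each genotype, and Cdkn2b in 3 wild-type and 2 knockout mice.

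Markers of other splenic cells were read on the same arrays. The erythroid markers were highest in the same 2 mice as the mitosis genes. Of 20 listed, 17 were tested and were well above background on each array, and Sptb was well above background on none. The limma F test gave 12 of the 17 an unadjusted column p under 0.05. Their centred mean was 1.69, -1.39 and -0.88 in wild type and 1.48, 0.30 and -1.19 in knockout, with 13 of 17 above 0 in the genotype difference and a median of 0.59. This direction rested on single mice. Without knockout replicate 1 it was 5 of 17 with a median of -0.16, without wild-type replicate 2 it was 6 of 17 with -0.07, and without wild-type replicate 3 it was 9 of 17 with 0.03. Without wild-type replicate 1 the median was 1.79 and without knockout replicate 3 it was 1.29, with 14 of 17 above 0 in both. Their summed signal relative to the 75th percentile ranged from 1105 to 2234 in wild type and from 608 to 2062 in knockout. The globins Hbb-bt, Hba-a1 and Hba-a2 had the highest mean levels of the list. Their processed signal varied by 1.25-, 1.23- and 1.17-fold over the arrays, so that their scaled level followed the percentile. The other genes gave 999 of the sum of 2014 in wild-type replicate 1 and 910 of 2062 in knockout replicate 1. In wild-type replicate 2 they gave 128 of 1105. Hba-a1 and Hba-a2 are near-identical copies whose probes may not tell them apart. Without the 3 globins, a choice made after the data were seen, the centred mean was 2.07, -1.66 and -1.27 in wild type and 1.78, 0.28 and -1.19 in knockout, and the summed signal was 999, 128 and 195 in wild type and 910, 480 and 138 in knockout. Both arrays of column 1 were the 2 highest for 14 of these 14 genes.

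Examples chosen after their values were seen show the pattern. Klf1, the erythroid Krüppel-like factor, measured 5.83, 1.51 and 1.93 in wild type and 5.55, 4.38 and 1.31 in knockout, a difference of 0.65 ± 1.36 (SE). Epor, the erythropoietin receptor, measured 5.11, 3.95 and 4.03 in wild type and 4.84, 3.76 and 3.72 in knockout, a difference of -0.25 ± 0.54 (SE). Klf1 was high in the mice in which the mitosis genes were high, and Epor spanned less. In knockout replicate 3 the erythroid genes were about as low as in wild-type replicates 2 and 3, while the mitosis genes were between. The part of erythroid cells in the levels of the division genes was not tested.

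The other marker lists had other orders. The 13 tested neutrophil granule genes averaged -0.44, 0.31 and -1.38 in wild type and 0.17, 1.88 and -0.54 in knockout, with 12 of 13 above 0, a median of 1.15 and summed signals of 55.2 to 254 and of 92.5 to 417. Without knockout replicate 2 the count was 7 of 13 and the median 0.26, and without wild-type replicate 3 they were 10 of 13 and 0.71. The 12 genes of NK and cytotoxic cells averaged -0.46, -0.28 and -0.98 and then 0.06, 1.25 and 0.42, with 12 of 12 above 0 and sums of 72.3 to 107.2 and of 128 to 444. The 15 T cell genes averaged -0.32, -0.09 and -0.71 and then 0.34, 0.75 and 0.04, with 14 of 15 above 0 and sums of 34.2 to 59.2 and of 43.1 to 106, and Cd247 was well above background on no array. Their median was 0.87, and it was 0.49 without knockout replicate 2 and 0.49 without wild-type replicate 3. These 3 lists, and the germinal centre and plasma cell list, had their highest mean in knockout replicate 2, the knockout mouse of column 2, and the sums of the NK and cytotoxic list did not overlap between genotypes. Of its 12 genes, 6 had an unadjusted limma p under 0.05 and were higher in knockout, against 0.685% of all entries, as did 3 of the T cell and 2 of the neutrophil genes. Quantile normalization turned 1 of the 12 NK and cytotoxic genes below 0, and the normexp background turned 1 more T cell gene below 0.

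The 12 B cell genes averaged -0.87, 0.10 and 0.77 and then -0.29, -0.06 and 0.35, with 7 of 12 above 0, a median of 0.02 and sums of 80.9 to 176 and of 114 to 152. The B cell list had no stable direction, with 2 of 12 above 0 and a median of -0.28 without wild-type replicate 1, 3 of 12 and -0.17 without knockout replicate 3, and 11 of 12 and 0.29 without wild-type replicate 3. Without knockout replicate 2 it was 6 of 12 with -0.05. Of 12 germinal centre and plasma cell genes, 9 were tested and averaged -0.20, 0.25 and -0.34 in wild type and -0.16, 0.71 and -0.26 in knockout, highest in knockout replicate 2. Of these, 6 lay above 0 with a median of 0.16, and 4 of 9 with -0.16 without knockout replicate 2. Their sums were 187 to 243 and 155 to 290, and Mef2b, a factor of germinal centre B cells, was well above background on no array. In both lists the sums of the genotypes overlapped. Of 9 megakaryocyte and progenitor genes, 5 were tested and 1 lay above 0 (3 without knockout replicate 3), with sums of 7.68 to 62.0 and of 8.04 to 22.8, and Gp6 and Itga2b were well above background on no array. The markers of the labelled cell type depended on the scaling. The 16 red pulp macrophage genes averaged -0.32, 0.24 and 0.81 in wild type and -0.39, -0.14 and -0.20 in knockout, with sums of 1356 to 2842 and of 1157 to 1594. All 16 lay below 0 with the 75th percentile and the normexp background, 15 of 16 with median scaling and 13 of 16 with quantile normalization. Their median was -0.44 with the 75th percentile, -0.32 with median scaling and -0.04 with quantile normalization, and -0.19 without wild-type replicate 3 and -0.74 without wild-type replicate 1. The processed signal of C1qc and Csf1r varied by 1.42- and 1.53-fold over the arrays, so that their scaled level followed the percentile. That of Slc40a1, also among the 3 genes of this list with the highest mean level, varied more, by 2.28-fold. None of the marker genes of any list passed the limma test with adjustment, and 1 B cell gene was lower at an unadjusted p under 0.05. The part of these cells in the levels of the division genes was not tested.

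**Figure D5:**
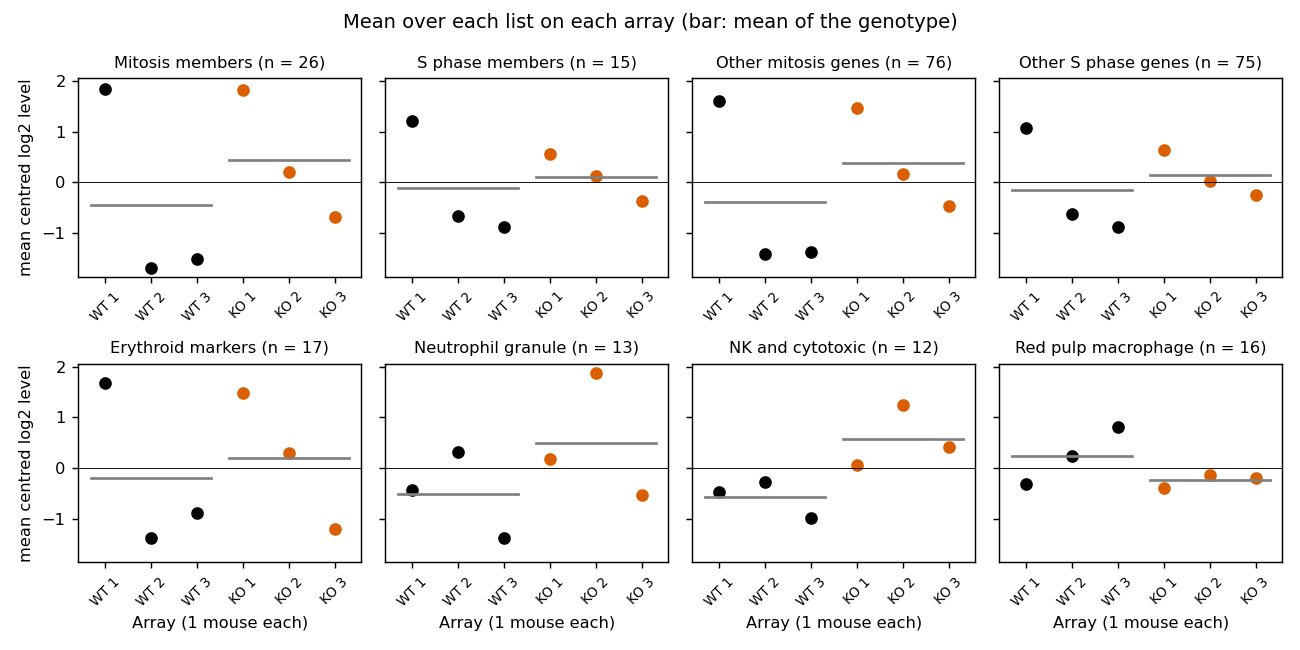
Mean over the tested genes of each list (y axis, log2 level centred for each gene) on each array (x axis, 1 mouse each), with the mean of each genotype as a bar. Replicate 1 of both genotypes stands highest for the mitosis and S phase members, the other mitosis and S phase genes and the erythroid markers. Knockout replicate 2 stands highest for the neutrophil and the NK and cytotoxic markers.

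Of each of the neutrophil, NK and T cell lists, the 3 genes with the highest mean level are given at their level in knockout replicate 2. S100a9, Camp and S100a8, proteins of neutrophil granules and cytosol, had levels there of 7.55, 6.81 and 5.54, with differences of 0.58 ± 0.85 (SE), 1.53 ± 0.81 (SE) and 0.85 ± 0.80 (SE). Ccl5, Gzma and Nkg7 of cytotoxic cells had levels there of 7.04, 7.72 and 5.52, with differences of 0.66 ± 0.59 (SE), 1.94 ± 0.62 (SE) and 1.48 ± 0.63 (SE). Cd2, Cd3d and Cd4 of T cells had levels there of 4.55, 4.97 and 1.90, with differences of 0.41 ± 0.51 (SE), 1.05 ± 0.82 (SE) and -0.20 ± 0.57 (SE). Cd4 was lowest of its 6 arrays there, unlike the mean of its list. Wild-type replicate 2, of the same array column, had levels of 7.19, 5.24 and 5.20 for S100a9, Camp and S100a8. Its levels of Ccl5, Gzma and Nkg7 were 5.79, 4.49 and 2.54, and those of Cd2, Cd3d and Cd4 were 4.22, 3.62 and 2.37.

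In the remaining lists, Cd79b, Ms4a1 and Spib of B cells had differences of 0.09 ± 0.47 (SE), 0.55 ± 0.64 (SE) and -0.31 ± 0.52 (SE). Jchain, Xbp1 and Mzb1 of plasma cells had -0.25 ± 0.42 (SE), -0.07 ± 0.47 (SE) and 0.31 ± 0.55 (SE). Pf4, Kit and Gp9 of megakaryocytes and progenitors had -1.52 ± 0.99 (SE), -0.31 ± 0.56 (SE) and -0.46 ± 1.05 (SE), and C1qc, Slc40a1, the iron exporter ferroportin, and Csf1r of the macrophages had -0.54 ± 0.52 (SE), -0.74 ± 0.46 (SE) and -0.59 ± 0.49 (SE). The globins Hbb-bt, Hba-a1 and Hba-a2 had -0.49 ± 0.58 (SE), -0.40 ± 0.58 (SE) and -0.51 ± 0.56 (SE).

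The authors' deposited table of selected probes lists 279 probes, beside 55681 probes on the arrays. It holds 0 probes of the 41 members and 0 of the other mitosis and S phase genes. As so few of the probes are listed, these counts say little about the members.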

How the data were processed

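Each of the 6 arrays holds 62976 spots, 59305 of them not controls, from 1 mouse. The deposited spot intensity values are the scanner's processed signal, which per the file headers was made with Feature Extraction 10.7.3.1 by background subtraction and detrending within each array. The submitters' processing notes name version 9.1. The authors' deposited table holds log2 values of 279 selected probes and was used only to count the members' probes.

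Outlier-flagged spots, 141 to 283 on each array, were dropped, and repeat spots were averaged for each probe. No saturation was flagged. Levels were log2 processed signal minus the array's 75th percentile. Probes were named by accession through RefSeq of GRCm38.p6, which named 26413 of 55681 probes. A probe entered the test if at least 3 of 6 arrays had it well above background (23056 probes, 24 left out for a missing value), and the brightest probe stood for a gene, which left 18389 entries, 11743 of them with a gene name. Genotypes were compared over all entries in limma 3.58.1 (R 4.3.3; lmFit, eBayes) with Benjamini-Hochberg adjustment. The fit was checked on simulated data drawn independently for each entry. The members shared an order of the arrays, so this check does not cover them as a set. The number of arrays limits the precision, and an exact permutation test of 3 against 3 mice cannot go below 0.1.

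The members and lists were chosen with earlier results of these data known, so lists carry counts and medians and no p. All members were described, and of other pathway lists the 3 genes with the smallest p in each direction, and of marker lists the 3 genes with the highest mean level. A few genes under these rules are not reported here. The array column F test, the ranks of arrays, the erythroid list without globins, 2 named erythroid genes and the printed promoters were chosen after the data were seen. The alternatives were other scalings, background correction, filters and choice of probe, the array column as a block, and mice left out. The mean spot signal is not in the files used here, so the normexp alternative (offset 50) used the median spot signal.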

Additional observations from a re-analysis of the deposited data

How the results depend on the processing

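No entry passed limma's adjusted threshold under any of 14 alternatives, while the number of entries with an unadjusted p under 0.05 was 235 in the comparison as reported and ran from 108 to 756, the last without wild-type replicate 1. The medians of the mitosis genes and the other mitosis genes stayed above 0 under every alternative. The medians of the 5 division lists moved by less than the SD between mice. Leaving out a single mouse moves the mean of so small a group by less than its SD by construction. The comparison with the SD therefore does not show that the medians are stable. With each mouse left out in turn, the median ran from 0.21 to 2.14 for the mitosis genes, from -0.14 to 0.91 for the S phase genes, from 0.22 to 1.87 for the other mitosis genes, from -0.15 to 0.78 for the other S phase genes and from -0.14 to 0.35 for the G1 and arrest genes, and the mitosis mean minus the S phase mean ran from 0.21 to 1.16. The highest mitosis median came without wild-type replicate 1 and the lowest without knockout replicate 1. With the array column as a block the differences stay as they are by construction, and 580 entries had an unadjusted p under 0.05.

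The log2 difference of 20 of the 41 members changed sign under at least 1 alternative, and the cause was not tested. Median scaling gave 0.057 for E2f1, 0.015 for Mcm3 and 0.052 for Pcna, and quantile normalization gave 0.0085 for Mcm3 and 0.16 for Pcna. The normexp background gave -0.20 for Cdc45. Without both mice that share a tag in their labels, Cenpf was 0.19, Cdc6 -0.0041, Mcm2 -0.18, Mcm4 -0.22 and Mcm6 -0.032. With single mice left out, the lowest and highest differences were, for mitosis genes, Foxm1 -0.16 to 2.03, Cenpf -1.66 to 0.65, Kif23 -0.30 to 1.37, Kif2c -0.28 to 1.73, Tpx2 -0.13 to 1.88 and Hmmr -0.27 to 2.29. Of the S phase genes, they were E2f1 -0.46 to 0.37, Cdc6 -0.22 to 1.51, Cdt1 -0.047 to 0.98, Mcm2 -0.089 to 1.04, Mcm3 -0.64 to 0.28, Mcm4 -0.14 to 0.70 and Mcm5 -0.23 to 0.91. They were also Mcm6 -0.18 to 0.63, Mcm7 -0.042 to 0.94, Cdc45 -0.52 to 0.94, Gins2 -0.16 to 0.84, Pcna -0.42 to 0.30, Rrm1 -0.14 to 1.18 and Tyms -0.25 to 0.88. The median difference over all entries, knockout minus wild type, moved between -0.16 and 0.04 with the alternatives. Cenpf, Cdc45, Aurkb and Kif2c were not well above background on every array, which limits their differences.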
